A study of Mus musculus with 36 samples.

Results

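The 10 genes described here belong to the extracellular proteolysis system and were followed in cultured enteric glial cells (EGCs) exposed to medium conditioned by tumor or by healthy colon cells. They are 7 metalloproteinases (Mmp2, Mmp3, Mmp9, Mmp10, Mmp13, Mmp14 and Adamts4) and 3 tissue inhibitors of metalloproteinases (Timp1, Timp2 and Timp3). These 10 genes were taken by name out of 43472 genes in the count table. The rule used no measured value, but the list was drawn up with earlier results of these data known. All 10 passed the filter on low counts in every comparison made here.

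The libraries came from embryonic neurosphere-derived EGCs of the WT genotype, grown from intestines of C57BL/6J mice and differentiated in culture. TME-CM is medium kept overnight on cells of digested orthotopic MC38 colon tumors, H-CM is the equivalent medium from cells of healthy colon, and unstimulated cultures received neither. Cells were collected after 6, 12 or 24 h, with 4 libraries in each of the 9 groups of stimulation and time, 36 in all. Nothing in the sources states that the 4 libraries of a group came from separate cultures or animals, so the p values measure the spread between libraries, which may be technical.

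Metalloproteinases are secreted or membrane-bound enzymes that need zinc to cut proteins of the extracellular matrix, and many of them also release or trim cytokines and growth factors. They are made as inactive proenzymes that other proteases activate, and TIMPs block the active enzyme by binding in its catalytic site. The balance between enzymes and TIMPs sets how fast tissue matrix is remodeled, in wound repair as in tumor stroma. Reactive glia of the brain are a known source of both arms, and Timp1 belongs to the genes that astrocytes induce in inflammation.

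The genes were placed on GRCm38, the build that the study aligned to under the name mm10. Mmp13 (chr9:7272514-7283331), Mmp3 (chr9:7445822-7455975) and Mmp10 (chr9:7502352-7510240) lay within 238 kb of each other on chromosome 9, in a run of 10 Mmp genes, and all 3 are on the plus strand. Mmp2 was on chromosome 8, Mmp9 on chromosome 2, Mmp14 on chromosome 14, Adamts4 on chromosome 1, Timp1 on chromosome X, Timp2 on chromosome 11 and Timp3 on chromosome 10. Promoter sequences were taken from RefSeq (GRCm38.p6), which gave a window for 7 of the 10 genes and none for Mmp2, Mmp9 and Adamts4. The 100 bases before the annotated start are shown for the 3 genes of the chromosome 9 cluster, which were all higher with TME-CM at 24 h, and for Timp1, which was higher as well but lies elsewhere. Capitals mark the AP-1 motif TGAGTCA or its reverse complement TGACTCA.
Mmp3 (chr9:7445722-7445821, plus strand): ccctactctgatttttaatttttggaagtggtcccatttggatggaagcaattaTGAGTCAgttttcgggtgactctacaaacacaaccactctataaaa
Mmp10 (chr9:7502242-7502341, plus strand): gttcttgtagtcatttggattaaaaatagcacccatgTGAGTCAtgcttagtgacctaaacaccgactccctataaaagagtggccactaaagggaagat
Mmp13 (chr9:7272414-7272513, plus strand): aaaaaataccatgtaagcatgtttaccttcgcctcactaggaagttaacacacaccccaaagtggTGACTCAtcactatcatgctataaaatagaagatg
Timp1 (chrX:20870066-20870165, plus strand): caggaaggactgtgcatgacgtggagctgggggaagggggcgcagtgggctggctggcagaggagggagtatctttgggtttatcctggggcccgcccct

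The AP-1 motif, searched on both strands, began 46 bases before the annotated start of Mmp3, 63 before that of Mmp10 and 35 before that of Mmp13. These were 3 of the 7 windows of 300 bases, against 5.2% of all 32851 promoter windows. The TATA motif TATAAA, searched on both strands, was present in the same 3 windows, against 13.6% of all windows. The ETS motif AGGAAG, searched on both strands, was in 5 of the 7 windows (35.4% of all). The STAT motif TTCNNNGAA (8.3% of all) and the single NF-kB string searched (0.411% of all) were in 0 of the 7. At such low shares, 0 hits in 7 windows is the usual outcome, so no conclusion is drawn from these absences. Mmp2, Mmp9 and Adamts4 had no window and were not searched. A match is a string of letters and was not tested for binding.

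Next, depth and identity of the cultures were examined. Counts per library ranged from 13518 to 5244763 at 6 h, from 2005239 to 5961933 at 12 h and from 1608018 to 7552509 at 24 h. At 6 h, H-CM replicate 4 held only 13518 counts, so that 3 counts already stood for 110 CPM, the unit used here for levels. CPM is the count of a gene scaled to a fixed library total, with library sizes adjusted by the TMM method. Because 3′ sequencing gives about 1 read per transcript, CPM was not divided by transcript length when genes were compared. The enteric glia markers Sox10, S100b, Erbb3 and Gfap were present but low: the 9 group means were 59.9 to 87.6 CPM for Sox10, 41.1 to 137 for S100b, 12.8 to 20.3 for Erbb3 and 1.08 to 4.08 for Gfap. As sums, 5 markers of fibroblasts and mesenchyme (Pdgfra, Wt1, Dcn, Lum and Col1a1) had 3731 to 5474 CPM, and 5 of smooth muscle (Acta2, Myh11, Des, Cnn1 and Tagln) 1941 to 7021 CPM. Most of this was Col1a1 (group means of 2789 to 4100 CPM), Dcn (525 to 2255), Acta2 (1520 to 5713) and Tagln (216 to 873). The other genes were nearer to Sox10 and S100b: Pdgfra (24.7 to 92), Wt1 (3.7 to 9.38), Lum (45.8 to 121), Myh11 (16.8 to 147), Des (33.3 to 131) and Cnn1 (34.8 to 156). In bulk RNA, a change in the number of cells of a type and a change in RNA per cell cannot be told apart.

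Timp2, which encodes the inhibitor that also helps MMP14 to activate pro-MMP2, was the most abundant of the 10 genes in all 9 groups, at 1321 ± 346 to 2326 ± 199 CPM (SD, n = 4). In unstimulated EGCs at 24 h, Timp3 followed at 624 ± 46.3 CPM, then Mmp14 at 617 ± 84.7 and Mmp2 at 151 ± 22.9. The inducible proteinases were at the bottom of that order, with Mmp9 at 26.6 ± 6.81, Adamts4 at 10.3 ± 2.91, Mmp3 at 5.67 ± 0.585 and Mmp13 at 3.02 ± 1.62 CPM. In TME-CM EGCs at 24 h the order differed: Timp1 followed Timp2 at 939 ± 191 CPM, then came Mmp9 at 776 ± 251 and Mmp14 at 632 ± 39.2, and Mmp3 at 404 ± 166 was ahead of Timp3 at 240 ± 37.9.

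Across the 9 groups, few neighbours in the order of a gene's levels differed beyond their spread. Mmp3 was highest with TME-CM at 24 h and 12 h, and there was a gap without overlap down to TME-CM at 6 h (59.8 ± 23.0 CPM). For Mmp9 the same pair of groups led, with a gap to H-CM at 24 h (105 ± 78.3 CPM), and for Timp1 with a gap to unstimulated EGCs at 24 h (149 ± 47.6 CPM). Timp3 ran the other way, with its lowest levels in this pair of groups below a gap to H-CM at 24 h (409 ± 35 CPM). Mmp13, Mmp14, Adamts4 and Timp2 had no such gap, so that each group overlapped with the next in order.

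**Figure D1:**
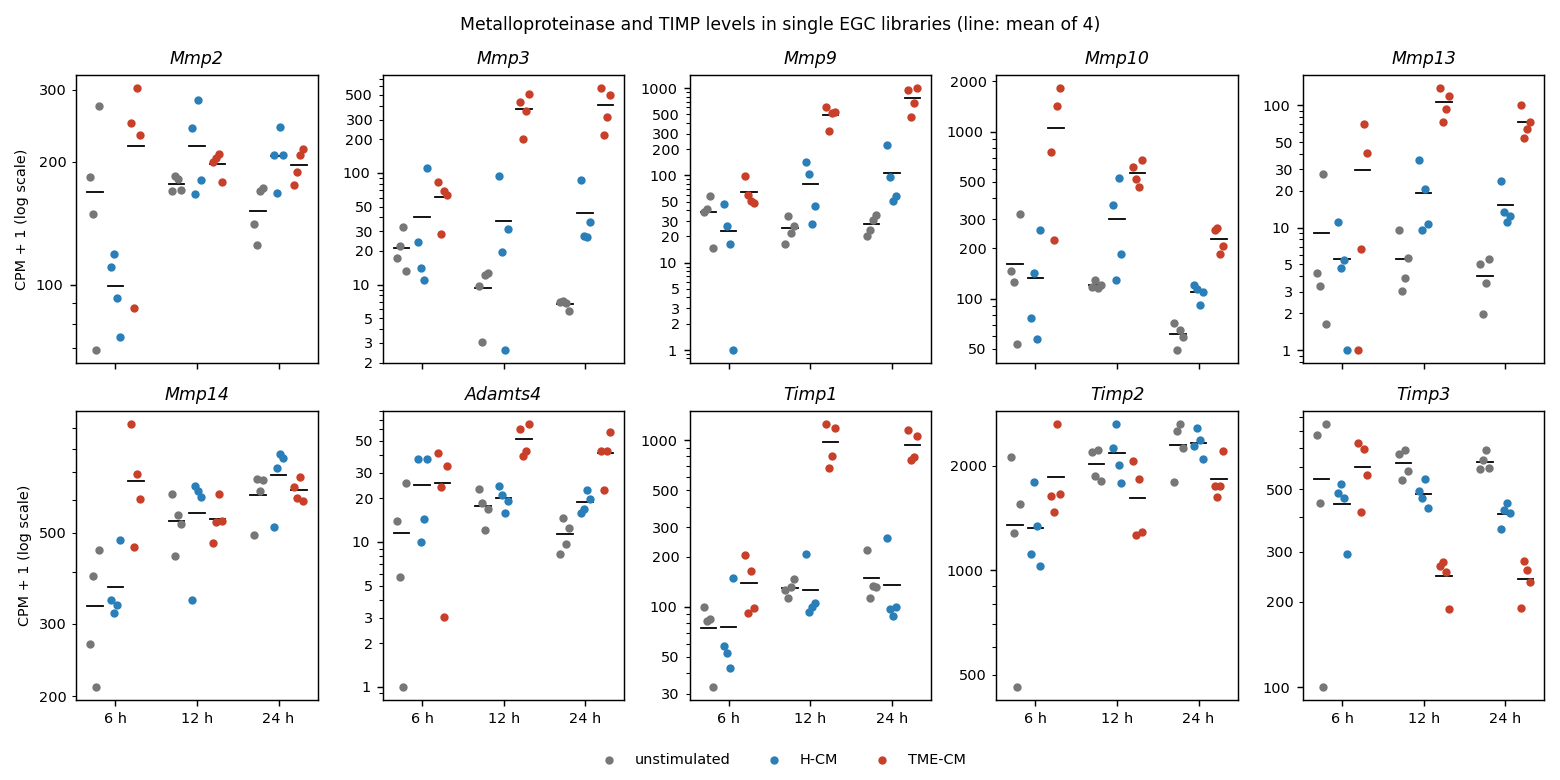
Level of each of the 10 genes in each of the 36 libraries (y axis, CPM + 1 on a log scale that differs between panels; x axis, time), colored by stimulation, with a line at the mean of 4 libraries. At 12 h and 24 h the 4 TME-CM libraries of Mmp3, Mmp9, Mmp13, Adamts4 and Timp1 lie above, and those of Timp3 below, every H-CM and unstimulated library of the same time.

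To ask what tumor-derived factors add to those of healthy colon, TME-CM was compared with H-CM at each time. At 24 h, 6 of the 10 genes were higher with TME-CM (Mmp3, Mmp9, Mmp10, Mmp13, Adamts4 and Timp1) and 1 was lower (Timp3), whereas Mmp2, Mmp14 and Timp2 did not pass the test. Of all 12713 genes tested in this comparison, 2.75% were higher and 2.65% lower. The same 6 genes were higher, and Timp3 lower, in all 4 TME-CM libraries than in any H-CM library, against 5.59% of all genes not overlapping upward and 5.56% downward. All 7 calls held when any 1 library was left out. In a single model of all 36 libraries, which takes its estimate of spread from the 6 h libraries too, 3 of the 7 still passed (Mmp3, Mmp9 and Timp1). Over all genes that model called 71, against 686 in the main fit.

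Mmp3 encodes stromelysin-1, which degrades proteoglycans and activates other pro-MMPs. Its 4 libraries at 24 h had 579, 216, 319 and 501 CPM with TME-CM and 85.6, 26, 25.9 and 35.1 CPM with H-CM. The groups did not overlap, and H-CM replicate 1 was the highest of its group. The log2 fold change was 3.23 (SE 0.44, adjusted p = 0.00114), or 3.83 without H-CM replicate 1.

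Mmp9, the gelatinase that cuts basement membrane collagen and denatured collagen, had 946, 466, 681 and 1010 CPM with TME-CM and 219, 94.3, 50.4 and 56.9 CPM with H-CM at 24 h. Again every TME-CM library was above every H-CM library, and H-CM replicate 1 was nearest to them. The log2 fold change was 2.87 (SE 0.48, adjusted p = 0.00554), or 3.52 without H-CM replicate 1. Neutrophils are a rich source of MMP9, so their markers are given here. S100a8, S100a9, Ly6g and Camp together summed to 27.5 ± 9.39 CPM in TME-CM and 4.96 ± 1.33 CPM in H-CM EGCs at 24 h. S100a8 was higher in TME-CM (log2 fold change 3.33, adjusted p = 4.89e-06), at 12.1 to 32.4 CPM against 1.96 to 2.26, and Ly6g had a count in 2 of the 36 libraries. Their part in the Mmp9 result was not tested.

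Mmp13 encodes collagenase-3, the main interstitial collagenase of the mouse. At 24 h it had 99.3, 52.5, 62.7 and 72.5 CPM with TME-CM against 22.9, 12.3, 10.1 and 11.4 CPM with H-CM, with no overlap and a log2 fold change of 2.34 (SE 0.31, adjusted p = 0.000125). Mmp10, stromelysin-2, had 258, 262, 184 and 205 CPM against 120, 114, 90.5 and 109 CPM. This was a smaller difference, with a log2 fold change of 1.06 (SE 0.15, adjusted p = 7.69e-05), and the groups again did not overlap.

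Adamts4 encodes an aggrecanase, which cuts the lectican proteoglycans that surround neurons and glia. It had 41.3, 21.8, 41.9 and 56.9 CPM with TME-CM and 14.9, 16, 21.8 and 18.8 CPM with H-CM at 24 h, so the lowest TME-CM library was barely above the highest H-CM library. The log2 fold change was 1.19 (SE 0.24, adjusted p = 0.00343).

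The inhibitors did not move together. Timp1, the soluble inhibitor of most MMPs, had 1148, 763, 792 and 1053 CPM with TME-CM and 256, 95.6, 87.0 and 99.4 CPM with H-CM at 24 h, and H-CM replicate 1 stood above the other 3 libraries of its group. The log2 fold change was 2.80 (SE 0.37, adjusted p = 0.000893), a 6.95-fold difference, and 3.32 without H-CM replicate 1. Timp3, which binds to the matrix and also inhibits ADAM and ADAMTS proteinases, had 190, 278, 258 and 234 CPM with TME-CM and 361, 421, 444 and 410 CPM with H-CM. It was lower with TME-CM without overlap (log2 fold change -0.77, SE 0.13, adjusted p = 0.000438). Timp3 shares 1733 exon bases with Syn3, a gene of the other strand, and whether counting used strand is not given in the sources used here. Syn3 itself averaged 0.293 CPM or less in every group and was not tested.

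The smooth muscle markers ran the same way as Timp3 at 24 h: they summed to 7021 ± 436 CPM in unstimulated, 3247 ± 317 with H-CM and 1941 ± 354 with TME-CM, and 4 of the 5 were lower in TME-CM than in H-CM. The 3 endothelial markers Cdh5, Pecam1 and Kdr also summed to less with TME-CM (16.2 ± 6.67 CPM) than with H-CM (45 ± 12.2 CPM) without overlap, and 1 of the 2 tested was lower, Kdr (log2 fold change -1.65, adjusted p = 0.00203). Unlike Timp3, their sum in unstimulated EGCs, 40.8 ± 8.17 CPM, overlapped with that of H-CM. Of the 5 fibroblast and mesenchyme markers, 3 were higher in TME-CM than in H-CM at 24 h (Dcn, Pdgfra and Lum), and their summed level was 5474 ± 597 against 3892 ± 312 CPM. None of these 4 enteric glia markers and none of the 6 macrophage and leukocyte markers passed the test by edgeR, with S100b among the glial ones at an unadjusted p of 0.00587. The part of these cell types in the changes of the proteinases and TIMPs was not tested.

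The remaining 3 genes, Mmp14, Mmp2 and Timp2, were abundant without stimulation. Mmp14, the membrane-type enzyme that activates pro-MMP2, had 645, 606, 681 and 596 CPM with TME-CM and 514, 718, 774 and 756 CPM with H-CM at 24 h. Mmp2, the constitutive gelatinase, had 174, 188, 206 and 213.5 CPM against 206, 166, 243 and 207 CPM. Timp2 had 1744, 1629, 1752 and 2210 CPM against 2275, 2564, 2377 and 2088 CPM. All 3 overlapped between these groups, although 3 of the 4 TME-CM libraries were below every H-CM library for Timp2. The log2 fold change was -0.13 (SE 0.13, adjusted p = 0.726) for Mmp14, -0.08 (SE 0.14, adjusted p = 0.867) for Mmp2 and -0.35 (SE 0.13, adjusted p = 0.156) for Timp2. Within 2 SE, the difference was -0.40 to 0.14 for Mmp14, -0.35 to 0.2 for Mmp2 and -0.61 to -0.08 for Timp2.

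At 12 h, 4 genes were higher with TME-CM than with H-CM (Mmp9, Mmp13, Adamts4 and Timp1) and Timp3 was lower, against 1.22% of all 12156 genes tested higher and 0.675% lower. Mmp3 joined them in not overlapping upward, which made 5 genes against 3.95% of all, and Timp3 alone did not overlap downward, against 3.28% of all. Timp1 had 1246, 683, 809 and 1178 CPM with TME-CM and 205, 91.7, 98.1 and 104 CPM with H-CM (log2 fold change 2.98, SE 0.26, adjusted p = 1.59e-06). Mmp9 was 6.28-fold higher (adjusted p = 0.00414), Mmp13 5.95-fold (adjusted p = 0.00117) and Adamts4 2.67-fold (adjusted p = 0.00451), and Timp3 had a log2 fold change of -0.96 (SE 0.17, adjusted p = 0.0028). In the model of all 36 libraries, 3 genes passed at 12 h (Mmp3, Mmp9 and Timp1).

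Mmp3 and Mmp10 did not pass at 12 h, and both varied widely between the H-CM libraries. Mmp3 had 429, 199, 361 and 507 CPM with TME-CM against 92.6, 18.5, 1.59 and 30.5 CPM with H-CM, a log2 fold change of 3.41 with an SE of 0.86 (adjusted p = 0.0989). Mmp10 had 611, 520, 465 and 678 CPM against 363, 128, 528 and 184 CPM (log2 fold change 0.92, SE 0.32, adjusted p = 0.218). Replicate 3 was thus the lowest H-CM library for Mmp3 and the highest for Mmp10. Without it, both passed, Mmp3 at 3.01 (adjusted p = 0.0487) and Mmp10 at 1.34 (adjusted p = 0.00607), and 7 of the 10 genes were called. Over all genes, the fits without 1 library called 137 to 297, against 230 with every library kept.

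At 6 h none of the 10 genes passed between TME-CM and H-CM by edgeR, although 4 had an unadjusted p under 0.05 (6.07% of all genes did), and only 9 of 9256 genes passed at all (0.0972%). DESeq2 called 1 of the 10, Mmp10. Mmp10 had 751, 225, 1418 and 1835 CPM with TME-CM, 75.7, 142, 56.5 and 257 CPM with H-CM and 146, 125, 52.4 and 319 CPM in unstimulated EGCs. Its log2 fold change against H-CM was 3.22 (SE 0.64, adjusted p = 0.0561). TME-CM replicate 2 was the lowest of its group and overlapped with the controls, and the adjusted p was 0.000351 without it. Against unstimulated EGCs Mmp10 was the only 1 of the 10 genes to pass at 6 h (log2 fold change 2.66, SE 0.58, adjusted p = 0.0478), where 0.454% of all genes did. That call was lost when the 2 shallowest libraries (H-CM replicate 4 and unstimulated replicate 3) were left out together (adjusted p = 0.255) and in 6 of the 8 fits without 1 library.

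The level of Mmp10 at 6 h also moved with the share of a single entry of the count table. This entry, Yam1, took 11 to 48.6% of the counts at 6 h. The 5 libraries with a Yam1 share of 11 to 20% (3 with TME-CM, 1 with H-CM and 1 unstimulated) had 257 to 1835 CPM of Mmp10, and the 7 libraries with a share of 37.8 to 48.6% had 52.4 to 225 CPM, so these ranges did not overlap. The lowest of the 5, at 257 CPM, was H-CM replicate 4 on 7 counts, and the next was at 319 CPM. For each of the other 9 genes the ranges overlapped, for Mmp14 only narrowly (453 to 916 against 210 to 460 CPM). The part of the Yam1 share in the Mmp10 difference was not tested. With Yam1 left out of the counts, Mmp10 had a log2 fold change against H-CM of 3.27 (adjusted p = 0.0431).

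**Figure D2:**
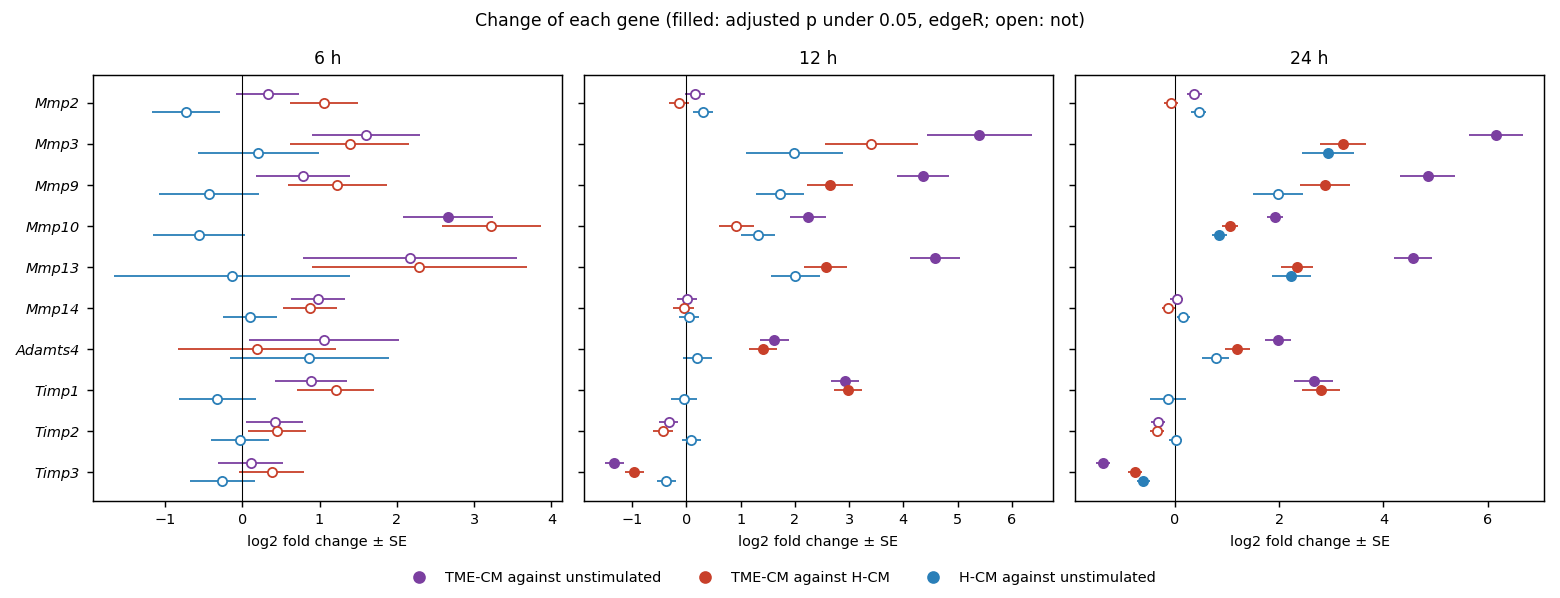
Log2 fold change (x axis) with its SE for the 10 genes (y axis) in 1 panel per time, for TME-CM against unstimulated, TME-CM against H-CM and H-CM against unstimulated EGCs. Filled points passed an adjusted p of 0.05 by edgeR, and the largest change is Mmp3 in TME-CM against unstimulated EGCs at 24 h, at 6.16.

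To see what medium from healthy colon cells did by itself, H-CM was also set against unstimulated EGCs. At 24 h, 3 genes were higher with H-CM (Mmp3, Mmp10 and Mmp13) and Timp3 was lower, against 1.07% of all genes tested higher and 0.96% lower. The 3 that were higher are the chromosome 9 genes shown above with the AP-1 motif, whose part was not tested. Mmp9 and Adamts4, which had no promoter window, were also above every unstimulated library without passing (adjusted p = 0.0837 and 0.157). Mmp3 had 6.01, 6.08, 5.77 and 4.81 CPM in unstimulated EGCs, below all H-CM libraries (log2 fold change 2.93, SE 0.50, adjusted p = 0.0111). Mmp13 had 4.00, 0.959, 2.53 and 4.56 CPM, likewise without overlap (log2 fold change 2.23, SE 0.37, adjusted p = 0.00293). Mmp10 was 1.81-fold higher with H-CM (adjusted p = 0.00249) and Timp3 had a log2 fold change of -0.61 (SE 0.12, adjusted p = 0.00864). For Mmp3 the call was lost in 3 of the 8 fits without 1 library, and in the model of all 36 libraries 2 of the 10 genes passed, Mmp3 and Mmp9. Over all genes that model called 34, against 258 in the main fit.

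In contrast, Timp1 did not differ detectably between H-CM and unstimulated EGCs at any time, with log2 fold changes of -0.32 (SE 0.50), -0.05 (SE 0.24) and -0.14 (SE 0.35) at the 3 times in order. Mmp9 had 219, 94.3, 50.4 and 56.9 CPM with H-CM and 19.3, 22.9, 29.6 and 34.5 CPM without stimulation at 24 h. These did not overlap, but the test did not pass (log2 fold change 1.98, SE 0.48, adjusted p = 0.0837). Without H-CM replicate 1 it passed at a log2 fold change of 1.33 (adjusted p = 0.04). At 12 h none of the 10 genes passed by edgeR between H-CM and unstimulated EGCs, where 0.403% of all genes did. There, 4 of the 10 had an unadjusted p under 0.05 (5.66% of all genes), and DESeq2 called 2. Mmp13 was nearest at a log2 fold change of 2.01 (SE 0.45, adjusted p = 0.0687). At 6 h no gene of the 10 passed, none had an unadjusted p under 0.05 (0.627% of all genes), and no gene of the 9256 tested passed by edgeR.

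TME-CM against unstimulated EGCs, which shares its libraries with the comparisons above, gave 6 higher genes (Mmp3, Mmp9, Mmp10, Mmp13, Adamts4 and Timp1) and 1 lower (Timp3) at both 12 h and 24 h. Of all genes, 2.67% were higher and 1.74% lower at 12 h, and 4.82% higher and 4.7% lower at 24 h. At 24 h Mmp3 was 71.5-fold higher (adjusted p = 1.46e-05), Mmp9 28.8-fold (adjusted p = 0.000155), Mmp13 23.8-fold (adjusted p = 1.2e-07) and Timp1 6.32-fold (adjusted p = 0.000543). Adamts4 was 3.91-fold and Mmp10 3.77-fold higher (adjusted p = 7.93e-06 and 8.8e-09). Timp3 had a log2 fold change of -1.38 (SE 0.13, adjusted p = 9.31e-08), that is, 2.61-fold less.

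Over time, the genes followed different courses with TME-CM. From 6 h to 12 h, Mmp9 and Timp1 rose and Timp3 fell, against 0.671% of all genes higher and 0.718% lower. Mmp9 went from 63.4 ± 23.7 to 493 ± 122 CPM (log2 fold change 2.93, SE 0.43, adjusted p = 5.3e-05) and Timp1 from 139 ± 54.4 to 979 ± 276 CPM (2.79, SE 0.35, adjusted p = 4.6e-06). Timp3 went from 597 ± 140 to 246 ± 40.1 CPM (log2 fold change -1.30, SE 0.34, adjusted p = 0.0421), a call that was lost in 6 of the 8 fits without 1 library. Mmp3 went from 59.8 ± 23.0 to 374 ± 131 CPM without passing (adjusted p = 0.0594).

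Mmp10 had a different course: its mean was highest at 6 h with TME-CM, 1057 ± 712 CPM, and was 568 ± 94.7 at 12 h and 227 ± 39.1 at 24 h. The 6 h and 12 h libraries overlapped, and the difference between these times did not pass (log2 fold change -0.92, SE 0.51, adjusted p = 0.356). From 12 h to 24 h it was the only 1 of the 10 genes to change with TME-CM, falling 2.49-fold (log2 fold change -1.32, SE 0.26, adjusted p = 0.0107), where 0.626% of all genes passed. The 4 libraries at 24 h all lay below those at 12 h. The call was lost without TME-CM replicate 3 or replicate 4 of 24 h. Mmp10 also had lower means at 24 h than at 12 h with H-CM (108 ± 12.8 against 301 ± 182 CPM, adjusted p = 0.0562) and without stimulation (60.1 ± 9.26 against 120 ± 5.57 CPM, adjusted p = 0.469). Neither difference passed. No change over time among the 10 genes passed by edgeR with H-CM or without stimulation. With H-CM, 6 of the 10 had an unadjusted p under 0.05 from 6 h to 12 h (5.41% of all genes) and 1 from 12 h to 24 h (6.23% of all), where 0.0395 and 0.00763% of all genes passed after adjustment. Without stimulation it was 2 of the 10 in each interval (6.06 and 5.3% of all), where 0.205 and 0.0153% passed. DESeq2 called 1 of the 10 with H-CM from 12 h to 24 h and 0 in the other 3.

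Whether the difference between TME-CM and H-CM itself changed over time was tested as an interaction. None of the 10 genes passed between 24 h and 12 h, none had an unadjusted p under 0.05 (2.82% of all genes did), and 0% of all genes passed. Between 24 h and 6 h none passed either by edgeR or by DESeq2, but 8 of the 10 had an unadjusted p under 0.05, against 8.43% of all genes. The largest of them was Mmp10, whose difference was 2.26 smaller on the log2 scale at 24 h than at 6 h (log2 difference -2.26, SE 0.60, adjusted p = 0.214). Without TME-CM replicate 2 of 6 h, 4 of the 10 genes passed (Mmp2, Mmp10, Mmp14 and Timp3). Over all genes, 479 passed in that fit, against 0 with every library kept.

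The mix of TIMP transcripts differed between stimulations, while the ranges of their sum overlapped. At 24 h the 3 TIMP genes summed to 3013 ± 366 CPM with TME-CM, 2869 ± 200 with H-CM and 3076 ± 369 without stimulation. Timp1 made up 31.0% ± 4.22 of these counts with TME-CM, 4.69% ± 2.80 with H-CM and 5.01% ± 2.28 without stimulation. Timp3 made up 8.12% ± 2.03, 14.3% ± 1.52 and 20.4% ± 1.44, so that the 3 groups did not overlap. At 12 h, the share of Timp1 was 34.5% ± 7.18 with TME-CM and 4.50% ± 1.76 with H-CM, and at 6 h it was 5.35% ± 1.74 and 4.48% ± 3.72.

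**Figure D3:**
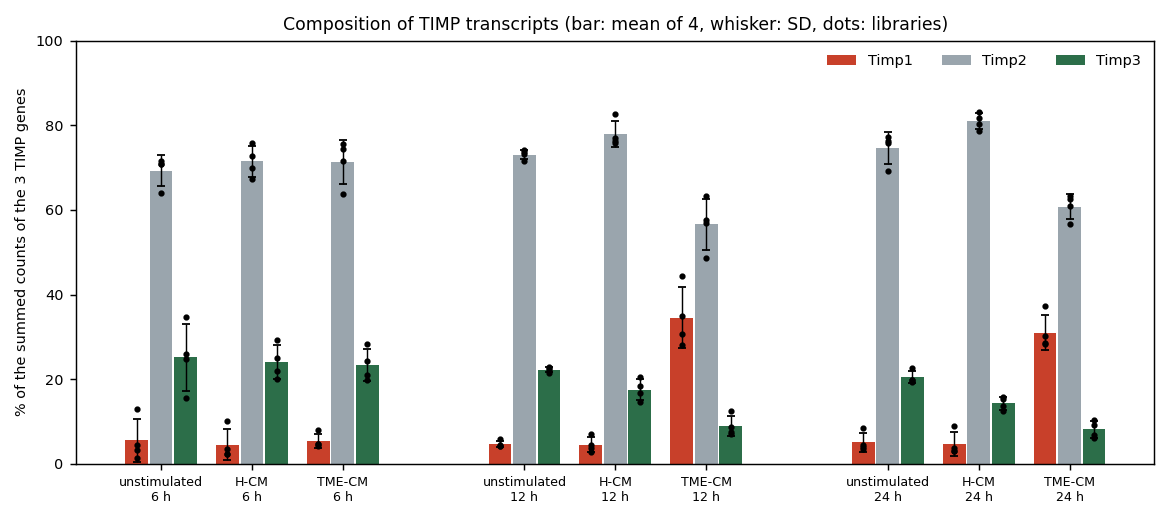
Share of Timp1, Timp2 and Timp3 in the summed counts of the 3 TIMP genes (y axis, percent) in the 9 groups (x axis), with bars at the mean of 4 libraries, whiskers at 1 SD and dots for libraries. Timp1 is at 28.0 to 44.4% in the TME-CM libraries at 12 h and 28.3 to 37.3% at 24 h, and at 1.32 to 13% in the unstimulated libraries at 6 h, the widest range of the other 7 groups.

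The proteinases differed in their sum. Together the 7 had 2346 ± 435 CPM with TME-CM, 1185 ± 28.8 with H-CM and 873 ± 93.2 without stimulation at 24 h, and the ranges of 1812 to 2743, 1147 to 1216 and 740 to 954 CPM did not overlap. At 12 h they had 2327 ± 323, 1227 ± 199 and 882 ± 64.3 CPM. At 6 h the TME-CM sum of 2119 ± 874 CPM ranged from 886 to 2853 and overlapped with that of H-CM (523 to 956) and of unstimulated EGCs (446 to 1096). The 3 chromosome 9 genes accounted for 1146 ± 748 CPM of the TME-CM sum at 6 h and 703 ± 191 CPM at 24 h.

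The likeness of patterns was measured as the root mean square difference of centered log2 levels over the 9 group means, among 10088 genes, and is a description. Among the 10 genes, Mmp14 and Timp2 were the closest pair at 0.18, followed by Mmp2 and Mmp14 at 0.27, while Mmp3 and Timp3 were the farthest at 2.46. Mmp9 and Mmp13 lay at 0.53, and Mmp13 was the gene nearest to Mmp9 among the 10088 genes compared. The gene nearest to Mmp3 was C3, the central complement component, at 0.49. Nearest to Mmp10 was Vgf at 0.40, with Ereg, which encodes the EGF receptor ligand epiregulin, and Cd274, which encodes PD-L1, both at 0.43. Nearest to Mmp13 was Il13ra2, a decoy receptor for IL-13, at 0.40, nearest to Adamts4 was the laminin gene Lama4 at 0.29, and nearest to Timp1 was the chemokine gene Cx3cl1 at 0.50. Nearest to Timp3, whose own pattern spans less, was Prnp at 0.17.

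The wider families were examined next, and their counts are read against the 2.75% of all genes that were higher and the 2.65% that were lower between TME-CM and H-CM at 24 h. Of 17 other Mmp genes, 7 were tested between TME-CM and H-CM at 24 h. None was higher and 1, Mmp11, was lower (31.6 ± 8.13 against 68.7 ± 17.4 CPM, log2 fold change -1.15, adjusted p = 0.000486), and it was lower at 12 h as well (-1.18, adjusted p = 0.0389). Mmp11 encodes stromelysin-3, which is activated inside the cell by furin. The median log2 fold change of the 7 was -0.27, against 1.13 for the 10 genes and 0 for all genes. Of the other 7 genes of the chromosome 9 run, Mmp12, the macrophage elastase, had 15.2 ± 5.99 CPM with TME-CM and 7.99 ± 4.23 with H-CM at 24 h without passing (adjusted p = 0.254). Mmp1a, Mmp1b, Mmp7, Mmp8, Mmp20 and Mmp27 had group means of 0 to 0.855 CPM.

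Against unstimulated EGCs at 24 h, where 4.82% of all genes were higher and 4.7% lower, 2 of the 7 other Mmp genes were higher and Mmp11 was lower (log2 fold change -0.75, adjusted p = 0.0106). The 2 are named here after their values were seen: Mmp12 (1.29, adjusted p = 0.0343) and Mmp19 (1.08, adjusted p = 0.000923).

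Of 18 other ADAMTS genes, 10 were tested and 2 of these were higher with TME-CM than with H-CM at 24 h. Adamts7 had 43.0 ± 11.6 against 22.7 ± 6.93 CPM (log2 fold change 0.93, adjusted p = 0.0193), and Adamts9 had 16.4 ± 3.59 against 7.85 ± 1.84 CPM (1.06, adjusted p = 0.0156). Both were higher against unstimulated EGCs as well, with log2 fold changes of 1.69 (adjusted p = 3.44e-05) and 1.30 (adjusted p = 0.00136). None of the 7 ADAM genes tested of 9 passed against H-CM at 24 h, nor did Reck, the only 1 of the 3 other inhibitors tested. Among 10 genes that activate, dock or clear metalloproteinases, the proprotein convertase gene Pcsk5 was higher with TME-CM (13.9 ± 6.61 against 3.76 ± 0.98 CPM, adjusted p = 0.00299) and its relative Pcsk6 lower (26.5 ± 5.64 against 56.4 ± 15.8 CPM, adjusted p = 0.00529). Furin, the plasminogen activator genes Plau and Plat, and Lrp1, the clearance receptor, did not pass against H-CM. Of the 4 lecticans, which are the substrates of Adamts4, 2 were tested. Vcan, encoding versican, was higher with TME-CM at 24 h (160 ± 65.6 against 68.8 ± 15.9 CPM, log2 fold change 1.23, adjusted p = 0.0362). The other lectican did not pass, and the median log2 fold change of the 2 was 0.12. Between TME-CM and H-CM at 12 h, none of these lists had a higher gene, and 1 gene besides Mmp11 was lower, Pcsk6 (-1.48, adjusted p = 0.00485).

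**Figure D4:**
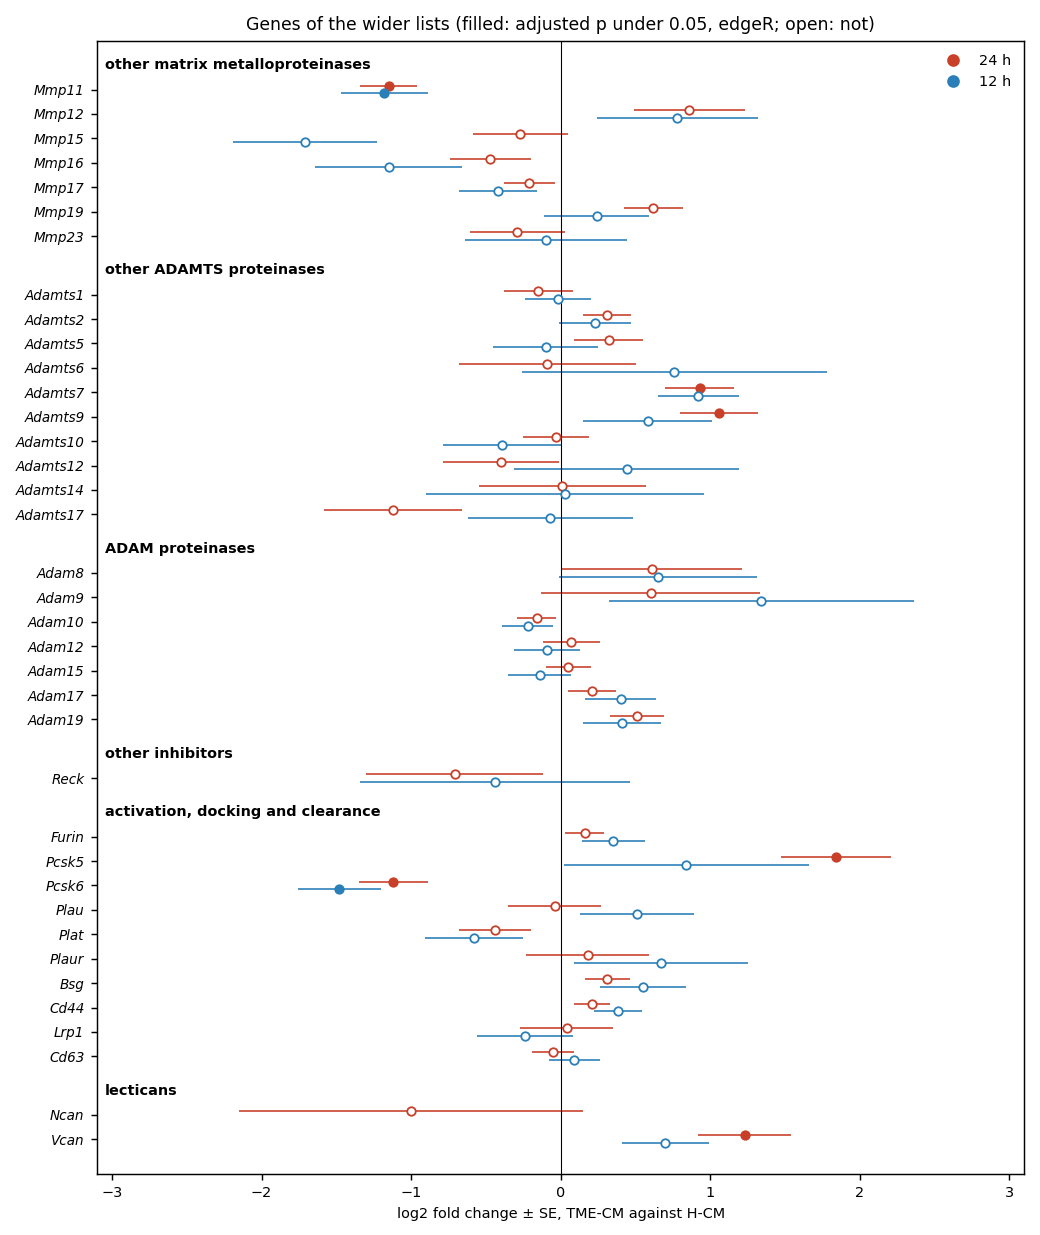
Log2 fold change of TME-CM against H-CM (x axis, with SE) for the genes of 6 wider lists (y axis) that were tested at 24 h, with the value at 12 h beside it where tested. Filled points passed an adjusted p of 0.05 by edgeR: Mmp11, Adamts7, Adamts9, Pcsk5, Pcsk6 and Vcan at 24 h, and Mmp11 and Pcsk6 at 12 h.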

How the data were processed

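Gene expression was measured by QuantSeq 3′ mRNA sequencing in 36 libraries. The authors aligned reads to mm10 with HISAT2 and deposited raw counts per gene from HT-seq Count, which were read here without change. The annotation, the strand setting and the use of molecular identifiers are not given in the sources used here. Per the submitters' processing notes, FastQC (0.11.7) and SAMtools (1.5) were also used. The 10 genes and the wider lists were chosen with earlier results of these data known.

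Counts were tested with edgeR (4.0.16, R 4.3.3) by the quasi-likelihood test with robust fits, TMM scaling and filterByExpr with a minimum count of 10, and p values were adjusted by Benjamini-Hochberg over all genes tested (threshold 0.05). Stimulations were compared within the 12 libraries of a time, times within 24 libraries, and the change of the TME-CM effect within 16 libraries. A gene was named from the wider lists if it passed at 24 h or 12 h between TME-CM and H-CM, up to 5 per list, and for each of the 10 genes that passed there the 3 genes of most similar pattern were ranked. Levels are CPM on TMM-scaled library sizes, and 3 counts set the floor of a library, which covers counting error only. Gene positions were taken from GENCODE M21 and promoter windows (250 bases before to 50 after the start) from RefSeq. Same-numbered libraries did not deviate together (correlation over 0.1 in 1 of 12 pairs at 6 h and in 2 of 12 at each later time), and 0 pairs of libraries were identical. Alternatives were the size factors and Wald test of DESeq2 (1.42.0), no filter, a replicate block, only the 8 libraries compared, all 36 libraries, leaving out Yam1 and leaving out each library. The scripts were tested on simulated data. Some results on genes outside the 10 are not reported here.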

Additional observations from a re-analysis of the deposited data

Results flagged for a closer look

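In 10 of 90 combinations of gene and group, 1 library stood apart from the other 3 of its group by Dixon's criterion, which chance exceeds in about 1 in 20 groups. H-CM replicate 1 accounted for 5 of them, and the cause was not tested. At 24 h it was the highest H-CM library for Mmp3 (85.6 CPM, the next at 35.1), Mmp13 (22.9 CPM, the next at 12.3) and Timp1 (256 CPM, the next at 99.4). At 12 h it was the highest for Timp1 (205 CPM, the next at 104) and the lowest for Mmp14 (341 CPM, the next at 610). Whether the replicate 1 cultures of 12 h and 24 h are related is not given in the sources used here.

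At 6 h the libraries standing apart included those of lowest depth. H-CM replicate 4 was the highest of its group for Mmp3 (110 CPM, resting on 3 counts), Timp1 (147 CPM, on 4 counts) and Mmp14 (478 CPM, on 13 counts), and unstimulated replicate 3 was the highest for Mmp13 (26.2 CPM, on 5 counts). TME-CM replicate 3 was the highest of its group for Timp2, at 2634 CPM on 6425 counts, with the next library at 1662 CPM.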

How the results depend on the processing

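No called change reversed its direction under any alternative. The 7 calls for TME-CM against H-CM at 24 h held under every alternative run but the model of all 36 libraries, which called 3. The model of all 36 libraries also called 3 genes (instead of 5) at 12 h, 4 (instead of 0) at 6 h, 3 (instead of 1) for TME-CM against unstimulated at 6 h and 2 (instead of 4) for H-CM against unstimulated at 24 h. In these comparisons, in the same order, it called 81 (instead of 230), 899 (9), 1113 (42) and 34 (258) over all genes. With no filter, 4 genes passed for H-CM against unstimulated at 12 h, 1 for TME-CM against H-CM at 6 h, 2 for the change of that effect from 6 h to 24 h, 2 for H-CM from 6 h to 12 h, and from 12 h to 24 h 1 with H-CM, 2 with TME-CM and 1 without stimulation. DESeq2's Wald test called 2 genes for H-CM against unstimulated at 12 h, 1 for TME-CM against H-CM at 6 h and 1 for H-CM from 12 h to 24 h. For TME-CM against H-CM at 6 h, 1 gene also passed with only the 8 libraries compared and without Yam1. The 1 call of TME-CM against unstimulated at 6 h became 0 with DESeq2 size factors, with only the 8 libraries compared and, an alternative chosen after seeing the data, without the 2 libraries of low depth. The causes were not tested.

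The replicate numbers share no stated culture, and within a time same-numbered libraries correlated only weakly. Pairing across times was not checked. TME-CM replicate 2 was the lowest of its group at both 12 h and 24 h for Mmp3, Mmp9, Mmp13, Adamts4 and Timp1. For Mmp10 and Timp3 it was the highest at 24 h. Among the TME-CM libraries of its time it had the largest Yam1 share (35% at 12 h and 35.1% at 24 h) and the smallest depth. The part of either in these levels was not tested. With the replicate number as a block, 1 gene passed for H-CM against unstimulated at 12 h (Mmp13) and 1 for TME-CM against H-CM at 6 h (Mmp10), while the other counts stayed within 1.5 times. With the block, Mmp3 passed (adjusted p = 0.0353) and Timp3 did not (adjusted p = 0.0556) from 6 h to 12 h with TME-CM.

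Leaving out 1 library gave 7 to 7 calls between TME-CM and H-CM at 24 h, 5 to 7 at 12 h and 0 to 1 at 6 h. It gave 7 to 8, 7 to 7 and 0 to 1 for TME-CM against unstimulated at 24 h, 12 h and 6 h, and 3 to 5, 0 to 2 and 0 to 0 for H-CM against unstimulated. From 6 h to 12 h it gave 2 to 3 with TME-CM and 0 to 0 otherwise, from 12 h to 24 h 0 to 1 with TME-CM, 0 to 1 with H-CM and 0 to 0 without stimulation, and 0 to 4 for the change of the effect from 6 h to 24 h. Over all genes it gave 417 to 776, 137 to 297 and 2 to 25 calls between TME-CM and H-CM at 24 h, 12 h and 6 h. For the change of the effect from 6 h to 24 h it gave 0 to 479 over all genes.

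Under some alternatives other than leaving out 1 library, counts over all genes moved by more than 1.5 times. Between TME-CM and H-CM they ran from 71 to 903 (main 686) at 24 h, 81 to 465 (230) at 12 h and 2 to 899 (9) at 6 h. Against unstimulated EGCs they ran from 265 to 1419 (1210), 288 to 706 (536) and 23 to 1113 (42) for TME-CM, and 34 to 446 (258), 28 to 168 (49) and 0 to 1 (0) for H-CM. Over time they ran from 122 to 595 (176) and 77 to 175 (82) for TME-CM, 3 to 84 (5) and 0 to 63 (1) for H-CM, 26 to 97 (26) and 2 to 49 (2) without stimulation, and 0 to 88 (0) for the effect from 6 h to 24 h. Levels moved by more than 1 SD in 0 of 90 gene and group combinations with DESeq2 size factors, 10 with plain totals and 55 without Yam1. Depth limits the 6 h results most: a floor of 3 counts stood for up to 110 CPM there, 1.52 CPM at 12 h and 1.48 CPM at 24 h.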
